A study of Mus musculus with 12 samples.

Results

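The cells described here are the 411 cells with 1 or more UMI of Trnp1 among the 2617 bone marrow cells of the G12D/E2-KO T3 library. UMIs (unique molecular identifiers) are the tags by which captured RNA molecules are counted. The 411 cells were set beside 459 comparison cells of the same library, which had no Trnp1 UMI and had either 1 or more UMI of Gata2 or Car1 at 5 or more per 10000 UMIs. All 12 libraries together hold 35597 cell profiles. The cells were chosen by their measured Trnp1, Gata2 and Car1 UMIs, so the levels of these genes in the groups are a description and support nothing. With 1 library per genotype and time point, no test was possible and none is given, and every interval below is an exact 95% Poisson or Clopper-Pearson binomial interval that covers counting error only. The limit given for a count of 0 is not such an interval but 3 counts of the total.

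G12D/E2-KO mice carried an LSL-NRas G12D knock-in allele and floxed Ezh2, both switched by Mx1-Cre after injection of pIpC, a synthetic double-stranded RNA. E2-KO mice carried only the Ezh2 deletion, G12D mice only the NRas allele, and WT mice were negative for Mx1-Cre but received pIpC as well. Mx1-Cre acts through an interferon-responsive promoter in blood cells and in other tissues, so recombination may not have been limited to progenitors, which was not tested. Mice were of C57BL/6 background and 8 to 12 weeks old at pIpC injection (20 mg/ml) according to the labels. Bone marrow was taken 2 weeks (T1), 2 months (T2) or 4 months (T3) later, and the sample titles give only T1, T2 or T3. It was enriched for c-Kit, the receptor of stem cell factor carried by hematopoietic stem and progenitor cells (HSPCs). Cell names inside the tables count the time points from T0, so that T3 of the titles is their last. The study's text gives a younger age at injection than the labels. How many mice were pooled in a library was not given in the sources used here.

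TRNP1 is a nuclear protein best known from the developing brain, where it governs how neural progenitors divide, and it is not a textbook gene of blood formation. GATA2 is a transcription factor of stem cells, of megakaryocyte-erythroid progenitors (MEPs) and of mast cells, and it gives way to GATA1 as erythroid progenitors (EryP) mature. CAR1 is a carbonic anhydrase made from the early erythroid stage onward, and the globins follow late. CSRP3 is a LIM protein known from striated muscle. EZH2 is the methyltransferase of Polycomb repressive complex 2, which keeps genes of other tissues silent.

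The T1 tables of G12D and G12D/E2-KO overlap: for 2896 of 3044 profiles in the G12D/E2-KO T1 table a near-identical one stood among the 5648 in the G12D T1 table. None of the other 65 pairs of libraries shared a cell, the G12D/E2-KO T3 library included, and whole-library values of Sapcd1 and Csrp3 at T1 are given with and without the shared cells. Other values at T1 of G12D/E2-KO rest mostly on shared cells. Ezh2 stood at 22.4 CPM (UMIs per 1000000 UMIs) in G12D/E2-KO T3 and between 103 and 133 CPM in the WT libraries. It was at 20.7 CPM in the G12D/E2-KO T1 table. In the G12D T1 table it was at 52.0 CPM with the shared cells and 86.3 CPM without them. The genotype of the shared cells was not tested further. Within G12D/E2-KO T3, Ezh2 was at 25.6 CPM in the Trnp1-positive cells (interval 20.3 to 31.9) and at 30.0 CPM in the comparison cells (24.1 to 37.0). The Trnp1-positive cells had a median of 6273 UMIs and 2086 genes, the comparison cells 5486 UMIs and 1889 genes. Mitochondrial genes gave a median of 5.21% and 5.56% of their UMIs.

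Trnp1 (ENSMUSG00000056596) lies on the minus strand at chr4:133491100-133498550 of mm10, and no other annotated gene overlaps it. The stretch before its start is shown because this gene defines the cells. These are the 250 bases before the start of Trnp1 (RefSeq, GRCm38.p6, chr4:133498551-133498800, minus strand), with a GATA-type hexamer in capitals:
Trnp1: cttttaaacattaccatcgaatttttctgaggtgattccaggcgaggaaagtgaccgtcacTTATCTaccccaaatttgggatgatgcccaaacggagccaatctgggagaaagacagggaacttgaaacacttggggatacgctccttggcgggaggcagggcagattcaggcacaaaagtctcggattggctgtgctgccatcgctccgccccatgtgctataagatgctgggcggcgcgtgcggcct
Searched on both strands were the hexamer AGATAA, the hexamer AGATAG, the hexamer TGATAA and the hexamer TGATAG. The Trnp1 stretch held 1 of them, the first on the opposite strand, beginning 189 bases before the start. Of all 32851 stretches of this length before annotated starts, 26.5% held at least 1. The stretch held 13 CG dinucleotides, more than 68.5% of all stretches, whose median was 6. Of the 5 genes of the rule and marker set (Trnp1, Gata2, Car1, Sapcd1 and Csrp3), 3 matched an entry. Gata2 has none of these hexamers before its annotated starts, and 1 of the annotated starts of Csrp3 has 2.

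Trnp1 was all but confined to the G12D/E2-KO T3 library, which held 99.0% of the Trnp1 UMIs of the series. Its 411 positive cells made up 15.7% of the library (interval 14.3 to 17.2), and Trnp1 stood at 67.1 CPM over all its cells. The WT libraries had 0 positive cells among 7583, which allows a share of up to 0.0396%. E2-KO had 1 of 2445 cells at T1, 3 of 2944 at T2 and 0 of 2586 at T3. G12D had 2 of 5648 cells at T1, both among the shared cells, 0 of 2412 at T2 and 1 of 2551 at T3. G12D/E2-KO had 2 of 3044 cells at T1 and 1 of 3767 at T2. The other 11 libraries thus had 8 positive cells among 30084, counting shared cells 1 time, or 0.0266% (0.0115 to 0.0524). The highest level among them was 0.18 CPM, in G12D/E2-KO T1. Of those 8 cells, 7 had 1 Trnp1 UMI. The one exception was a basophil- and mast cell-like cell of G12D/E2-KO T1 with 3.

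**Figure D1:**
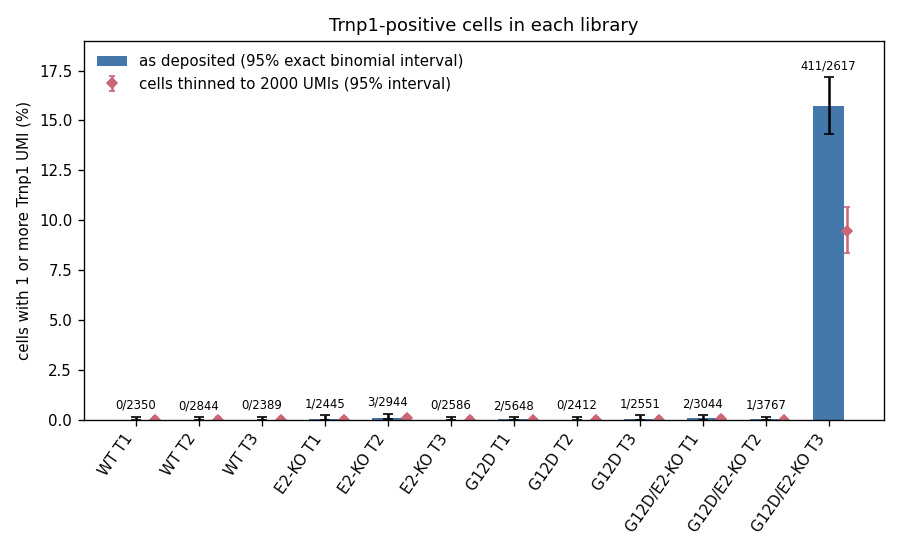
Share of cells with 1 or more Trnp1 UMI in each of the 12 libraries, in percent, as deposited (bars) and after each cell was thinned to 2000 UMIs (diamonds), with exact 95% binomial intervals and the number of positive cells over all cells. G12D/E2-KO T3 stands at 15.7%, or 9.46% after thinning, and no other library exceeds 0.102%.

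The contrast between libraries was also present at equal depth, but the size of the share went with depth. After every cell was thinned to 2000 UMIs and 132 shallower cells were left out, 235 of 2485 cells of G12D/E2-KO T3 were positive, or 9.46%, and the highest share in another library was 0.0679%. Late granulocyte-like cells (late GN-like), which should lack the gene, served as the background from free RNA. They had 4 positive cells of 347 (1.15%, 0.315 to 2.93) at a median of 2996 UMIs, and 0.671% after thinning. Among the positive cells, 186 had 1 Trnp1 UMI, 80 had 2, 60 had 3, 26 had 4 and 59 had 5 or more, with a highest value of 21. Cells just inside the rule (1 UMI) had a median depth of 5491 UMIs, and all cells just outside it (0 UMIs) 4949. When the cells of the library were ordered by depth and cut into 3 groups of like size, 9.4%, 16.4% and 21.3% were positive from the shallowest to the deepest. A cell with 0 Trnp1 UMIs is therefore not shown to lack the RNA.

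Of the 411 positive cells, 325 (79.1%) also passed the Gata2 or Car1 rule, 231 with a Gata2 UMI, 222 with Car1 at the set rate and 128 with both. Of the 86 that passed neither, 60 had 1 Trnp1 UMI. The rule for comparison cells and the rule for positive cells therefore do not draw on the same population.

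Cell classes were taken from the nearest WT cell, with Trnp1, Gata2 and Car1 left out of the genes used to cluster and match cells. The marker lists that named the classes still held Gata2 (MEP) and Car1 (EryP/early Ery), so the names are not free of the rule genes. Positive cells fell mainly in 3 classes: 165 were EryP/early Ery-like (early erythroid), 94 MEP-like and 81 HSC/MPP-like (stem and multipotent progenitor), together 82.7% of them. The share of positive cells was 64.4% of MEP-like cells (94 of 146, interval 56.0 to 72.1) and 57.5% of EryP/early Ery-like cells (165 of 287, 51.5 to 63.3), and these intervals overlap. It was 29.2% in HSC/MPP-like cells (81 of 277, 24.0 to 35.0) and 10.5% in Meg-like (megakaryocytic) cells (24 of 229). It was 2.05% in GMP/early GN-like cells (18 of 880) and 1.85% in late Ery-like cells (2 of 108), both within the interval of the late granulocytes. Thinned to 2000 UMIs, the order of the leading classes held, at 42.0%, 28.8% and 21.2%. The median depths of these classes were 4420, 9530 and 4377 UMIs.

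The marker genes did not mark the positive cells as 1 cell type. The marker set Trnp1, Sapcd1, Gata2 and Csrp3 was high together in the MEP-like positive cells, with 472 CPM of Sapcd1, 376 CPM of Csrp3 and 390 CPM of Gata2. Trnp1 was high there by the rule, and Gata2 is on the list that named the class. MEP-like cells with no Trnp1 UMI had 438 CPM of Sapcd1, 181 CPM of Csrp3 and 453 CPM of Gata2 (364 to 557). These levels thus belong in part to the class and not to the positive cells alone. EryP/early Ery-like positive cells had 136 CPM of Sapcd1, 41.9 CPM of Csrp3 and 81.5 CPM of Gata2, and HSC/MPP-like positive cells 32.3, 7.45 and 166 CPM in the same order. Trnp1 itself was at 470.0, 316 and 345 CPM in the positive cells of the MEP-like, EryP/early Ery-like and HSC/MPP-like classes. The positive cells therefore spread over several progenitor classes and are called Trnp1-positive cells here, after the rule.

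Clusters of the G12D/E2-KO T3 library alone were made without the 3 genes of the rule, but named from lists that hold Gata2 and Car1. These clusters also placed the positive cells mainly in early erythroid, MEP-like and stem-like cells. Of 19 clusters, 4 held 345 of the 411 positive cells (83.9%) in 749 cells. Cluster 6, EryP/early Ery-like and led by Mt2, Sphk1 and Car1, had 129 positive cells of 178 (72.5%, 65.3 to 78.9). Cluster 7, MEP-like and led by Csrp3, Sapcd1 and St8sia6, had 115 of 165 (69.7%, 62.1 to 76.6). Cluster 4, HSC/MPP-like and led by Gem, had 71 of 211 (33.6%, 27.3 to 40.5). Cluster 15, baso/mast-like and led by Prg2 and Prss34, had 16 of 60 (26.7%, 16.1 to 39.7), and the unnamed cluster 5, led by Jchain and Cpa3, had 30 of 195 (15.4%).

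The shares were lower in clusters led by later erythroid or by platelet genes. Cluster 13, EryP/early Ery-like but led by the later genes Tmem56, Smim1 and Rhag, had 10 of 75 (13.3%, 6.58 to 23.2) despite a median depth of 8661 UMIs. Cluster 8, Meg-like with Rcvrn and Snap47 among its leading genes, had 15 of 142 (10.6%, 6.03 to 16.8). Cluster 14, the Meg-like cluster led by the platelet genes Ppbp, Thbs1 and Pf4, had 0 of 70 at a median of 6594 UMIs, which allows a share of up to 4.29%. Cluster 12, late Ery-like, had 0 of 82, which allows up to 3.66%, at the lower median of 2765.5 UMIs. The small cluster 17, also late Ery-like, had 2 of 27 (7.41%, 0.91 to 24.3). The early erythroid cluster 6 and the later cluster 13 did not overlap in their intervals. Depth differed between these clusters, with medians of 10447.5 UMIs in cluster 6, 4623 in cluster 7 and 3726 in cluster 4. After thinning the shares were 34.3%, 48.4% and 26.0%, so that cluster 7 stood above cluster 6, and cluster 13 was at 1.35%.

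**Figure D2:**
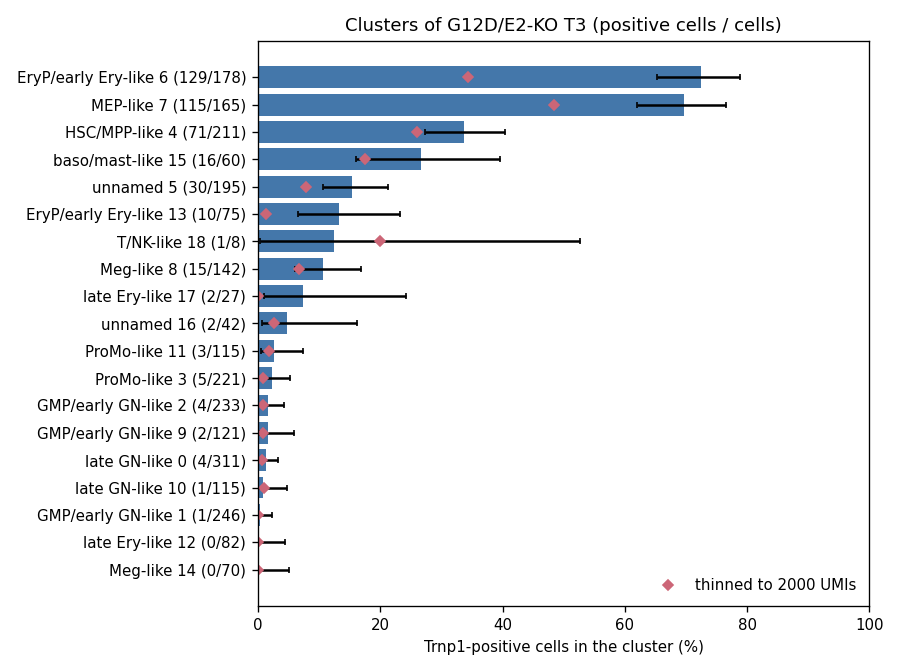
Share of Trnp1-positive cells in each of the 19 clusters of G12D/E2-KO T3, in percent with exact 95% binomial intervals, and after thinning to 2000 UMIs (diamonds). Clusters 6 and 7 exceed 69%, cluster 4 reaches 33.6%, and the platelet-gene cluster 14 and late erythroid cluster 12 have 0 positive cells.

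Compared with the same class in the other 11 libraries (G12D T1 without the shared cells), Trnp1 exceeded every other library. In EryP/early Ery-like cells it was at 206 CPM over all T3 cells of the class and at most 0.488 CPM elsewhere. In MEP-like cells it was at 334 CPM against at most 1.85 CPM, and in HSC/MPP-like cells at 109 CPM against at most 0.95 CPM. A further search, added after the values were seen, asked which genes of the positive cells lay at least 4-fold above the highest of the other 11 libraries in their class. It named 3 genes in the EryP/early Ery-like class (0.0523% of the genes compared), 4 in the MEP-like class (0.054%) and 5 in the HSC/MPP-like class (0.0716%), Trnp1 included in each.

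Most of the other genes so named were also high in Trnp1-negative cells of the library. Fam178b was at 28.1 CPM in EryP/early Ery-like positive cells (20.9 to 36.9), 13.4 CPM in negative cells of that class (7.11 to 22.8) and at most 1.28 CPM elsewhere. It was also named in the MEP-like class. There it was at 32.7 CPM in positive cells (18.7 to 53.1), 10.1 CPM in negative ones (1.22 to 36.4) and at most 2.29 CPM elsewhere. Gem, a small GTPase of the RGK family, was at 335 CPM in HSC/MPP-like positive cells (281 to 397), 281 CPM in negative ones (247 to 319) and at most 60.5 CPM elsewhere. Gzmb, a granule protease of cytotoxic cells and mast cells, was at 57.1 and 13.8 CPM in these HSC/MPP-like groups and at most 8.84 CPM elsewhere, from 23 UMIs in the positive cells. The others were 0610040J01Rik in the EryP/early Ery-like class, Gp1bb and Prune2 in the MEP-like class, and Ttn and Igfbp7 in the HSC/MPP-like class. Gp1bb was at 89.9 CPM in MEP-like positive cells (65.3 to 121) and 176 CPM in negative ones (123 to 245).

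Sapcd1, a gene of little-studied function, was highest in G12D/E2-KO T3 among whole libraries. Its level was 16.2, 10.0 and 6.56 CPM in WT at T1, T2 and T3 and 28.9, 28.0 and 26.0 CPM in E2-KO. It was 9.61 (4.66 without the shared cells), 8.14 and 5.70 CPM in G12D and 14.0 (8.36 without the shared cells), 25.2 and 58.2 CPM in G12D/E2-KO. The value of 8.36 CPM rests on 148 cells and has an interval of 2.71 to 19.5. The T3 interval (54.5 to 62.2) did not overlap that of any other library. In MEP-like cells of T3, Sapcd1 was at 472 CPM in positive cells (413 to 537) and 438 CPM in negative ones (351 to 540), against at most 184 CPM in another library, so it was high there with or without a Trnp1 UMI.

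Csrp3 was at 9.21, 9.94 and 13.1 CPM in WT at T1, T2 and T3, and at 14.7, 8.39 and 8.86 CPM in E2-KO. It was at 15.9 (13.1 without the shared cells), 9.11 and 21.8 CPM in G12D and at 18.0 (3.34 without the shared cells), 17.9 and 30.4 CPM in G12D/E2-KO. The value of 3.34 CPM rests on 148 cells and has an interval of 0.405 to 12.1. In MEP-like cells of T3, Csrp3 was at 376 CPM in positive cells (324 to 434) and 181 CPM in negative ones (127 to 251), intervals that did not overlap. The highest other library had 311 CPM in that class, in G12D/E2-KO T1, most of whose cells are shared with G12D T1. A Csrp3 UMI was found in 71.3% of the MEP-like positive cells (61.0 to 80.1) and 38.5% of the negative ones (25.3 to 53.0), at median depths of 4917 and 3557 UMIs, and after thinning in 52.7% (42.0 to 63.3) and 27.7% (15.6 to 42.6).

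Against the 459 comparison cells, the positive cells were lower in genes of megakaryocytes and of late erythroid cells, and higher in a small number of genes that include Kcng2 and Rab4a. Of 5672 genes at 20 CPM or more in either group, 19 were past 2-fold higher (0.335%, Trnp1 included) and 123 past 2-fold lower (2.17%), on log2 of CPM plus 5. The median log2 difference of all these genes was -0.03. The classes differed as well: Meg-like cells made up 29.6% of the comparison cells and 5.84% of the positive cells, late Ery-like cells 3.92% and 0.487%, and EryP/early Ery-like cells 24.8% and 40.1%. Values within 1 class are given further on.

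The genes with the highest differences are given by what they are known for, beginning with ion, water and metal handling. Kcng2, a modifier subunit of potassium channels, had 81 UMIs in positive cells (26.0 CPM, 20.6 to 32.3) and 13 in comparison cells (4.43 CPM, 2.36 to 7.58), a log2 difference of 1.71. Mt2, a metallothionein that binds zinc and copper, was by far the most abundant, at 942 and 422 CPM (log2 1.15), but only at 0.33 within EryP/early Ery-like cells and at 0.75 without Meg-like and late Ery-like cells, short of the fold. Atp1b2, a subunit of the sodium pump, was at 58.7 and 20.5 CPM (1.32), and Aqp11, an aquaporin, at 26.9 and 7.16 CPM (1.39).

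Next come genes known from vesicle traffic, metabolism and signalling. Rab4a, a GTPase of endosome recycling, was at 71.8 and 23.5 CPM (log2 1.43). Ephx2, soluble epoxide hydrolase, was at 32.1 and 7.16 CPM (1.61), and Pex11a, a peroxisome membrane protein, at 24.0 and 6.14 CPM (1.38). Gna15, a G protein subunit of blood cells, was at 39.1 and 16.7 CPM (1.02). It was short of the fold within EryP/early Ery-like cells (0.77) and without Meg-like and late Ery-like cells (0.77). Fam46a, a non-canonical poly(A) polymerase, was at 145 and 58.7 CPM (1.24), and short of the fold without Meg-like and late Ery-like cells (0.90).

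A few of the 20 are known mainly from muscle or nerve cells. Csrp3 was at 93.3 CPM (82.9 to 105) and 39.9 CPM (33.0 to 47.8), a log2 difference of 1.13. It was short of the fold against comparison cells chosen by Gata2 alone (0.76) and without Meg-like and late Ery-like cells (0.92). Nefh, a neurofilament protein, was at 28.9 and 8.53 CPM (1.32), and Clstn1, a calsyntenin, at 43.9 and 16.4 CPM (1.19). Both were also found in WT EryP/early Ery-like cells, Nefh at 19.8 to 27.7 CPM and Clstn1 at 20.6 to 21.4 CPM. Sapcd1 was at 165 CPM (151 to 180) and 96.2 CPM (85.3 to 108), a log2 difference of 0.75 that did not pass the fold. Among the remaining leaders, Gm15915 was at 137 and 39.9 CPM (1.66), and Gml2, Fam178b, Mpped2, Ext1, Prelid2 and Chst15 had log2 differences of 0.99 to 1.65. Prelid2 and Chst15, the last of the 20, were just short of the fold, so 18 passed it.

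The leading genes were also read in WT cells. In WT EryP/early Ery-like cells, 14 of the 20 were above 10 CPM in each of the 3 WT libraries, and for 14 of the 20 the lowest WT value in that class lay above the highest WT value in Meg-like cells. Of all 5672 genes tested, 91.7% and 23.9% met these conditions. Gm15915 stood at 147 to 160 CPM in WT EryP/early Ery-like cells and at 16.3 to 25.5 CPM in WT Meg-like cells. The 6 that were not above 10 CPM in each were Fam178b, Pex11a, Mpped2, Csrp3, Chst15 and Gml2. Fam178b was the lowest of them, at 0.134 to 0.335 CPM in WT EryP/early Ery-like cells against 21.8 CPM in the positive cells. Csrp3 was at 4.36 to 7.92 CPM in WT EryP/early Ery-like cells. In WT MEP-like cells it was higher, at 124, 185 and 295 CPM at T1, T2 and T3. Gm15915, Mt2, Prelid2, Kcng2, Rab4a, Atp1b2 and Nefh were among the leading genes of a WT EryP/early Ery-like cluster.

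**Figure D3:**
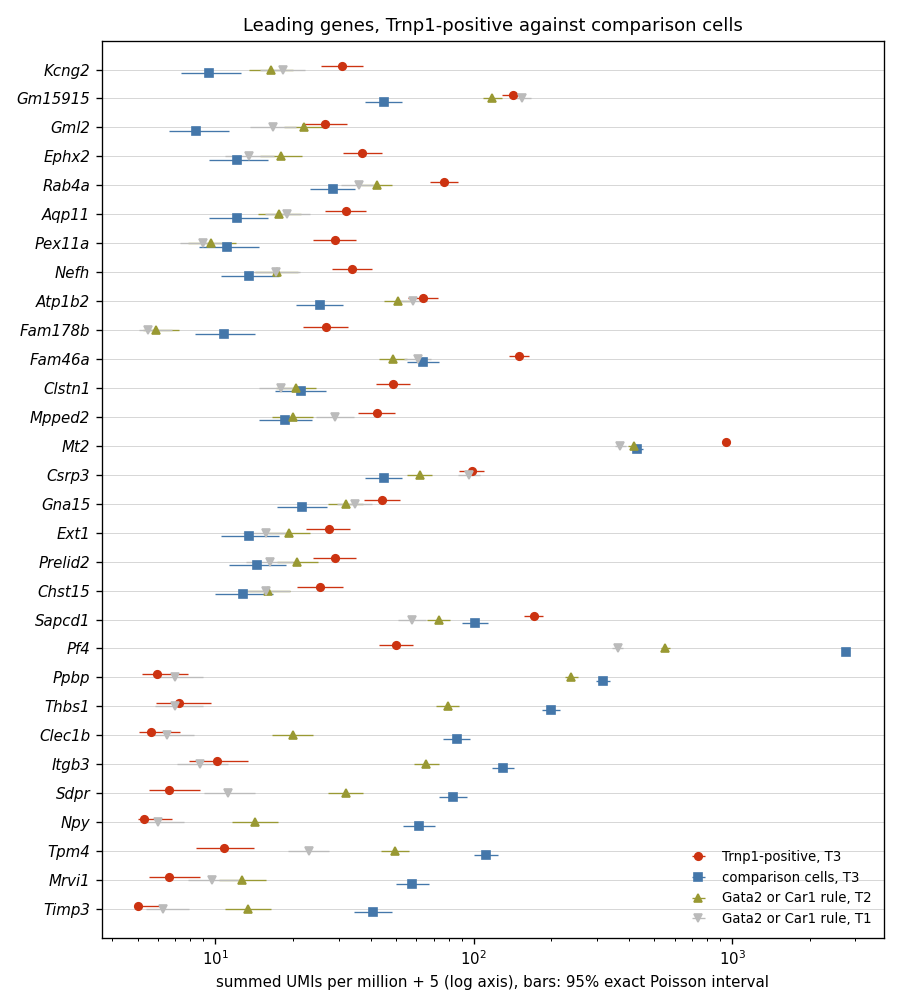
CPM plus 5 (log axis) of 19 of the 20 genes highest and the 10 lowest in Trnp1-positive against comparison cells of G12D/E2-KO T3, and of Sapcd1, with exact 95% Poisson intervals, beside cells of the Gata2 or Car1 rule at T2 and T1. Pf4 has the widest gap, at 45.2 CPM in positive and 2750 CPM in comparison cells.

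The 10 lowest genes were mostly those of megakaryocytes and platelets. Pf4, platelet factor 4, had 141 UMIs in positive cells (45.2 CPM, 38.1 to 53.3) and 8062 in comparison cells (2750 CPM, 2690 to 2811), a log2 difference of -5.78. Ppbp, a platelet chemokine precursor, had 3 and 915 UMIs, and Thbs1, thrombospondin, 7 and 570. The Thbs1 UMIs lay in 2.40% of the comparison cells, and its log2 difference of -4.78 became -1.51 without the top 5% of UMIs and -2.81 by the mean of CPM per cell. Clec1b, a platelet receptor, was at 0.641 and 81.2 CPM, and Itgb3, the beta subunit of the fibrinogen receptor, at 5.13 and 125 CPM. Sdpr, Npy, Tpm4 and Mrvi1 were between 0.321 and 5.77 CPM in positive cells and between 52.9 and 106 CPM in comparison cells. Timp3, an inhibitor of matrix proteases, had 0 and 105 UMIs.

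In WT cells, for 9 of the 10, the lowest WT library in Meg-like cells lay above the highest in EryP/early Ery-like cells, with Npy the exception. Of all genes tested, 30.2% met this condition. Without Meg-like and late Ery-like cells (385 positive and 305 comparison cells, an alternative added after the values were seen), Pf4 was at 36.5 and 45.3 CPM, a log2 difference of -0.28, and none of the 10 was past the fold. On the higher side all 20 leading genes, which were chosen for being high in these same cells, stayed above 0. Of them, 12 were past the fold, beside 15 of all 5536 genes tested there. The globins were lower there too, with Hba-a1 at 193 and 1280 CPM (log2 -2.70) and Hbb-bs at 459 and 1638 CPM (-1.82).

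Within the EryP/early Ery-like class the positive cells had less RNA of globins and of other late erythroid genes. The groups were spread in different proportions over the early erythroid clusters. Counted over the whole library and not this class alone, cluster 6 held 129 positive and 48 comparison cells, and the later cluster 13 held 10 and 62. Here 165 positive cells were set against 114 comparison cells, with median depths of 10338 and 8219.5 UMIs, and 93 of 5244 genes were past the fold higher (1.77%) and 114 lower (2.17%). The genes named in this paragraph were chosen after the values were seen. Hba-a1 was at 269 CPM in positive cells (246 to 294) and 2595 CPM in comparison cells (2494 to 2699), a log2 difference of -3.24. Hbb-bt was at 182 and 1685 CPM, and Slc4a1, the band 3 anion exchanger of the red cell membrane, at 5.51 and 52.4 CPM. Hemgn, a nuclear protein of erythroid cells, was at 47.4 and 220 CPM, Epb42, a protein of the red cell skeleton, at 3.31 and 28.3 CPM, and E2f2, a transcription factor of the cell cycle, at 7.71 and 64.0 CPM. In WT EryP/early Ery-like cells Hba-a1 was at 1279 to 1938 CPM. For each gene named here, the WT levels lay between those of the positive and the comparison cells.

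The genes below were higher in the same EryP/early Ery-like positive cells. Csrp3 was at 41.9 CPM (33.0 to 52.4) against 6.29 CPM (2.31 to 13.7), a log2 difference of 2.05. Cd63, a tetraspanin, was at 74.4 and 15.7 CPM, S100a10, the annexin A2 partner, at 92.0 and 17.8 CPM, and Hhex, a homeobox transcription factor of early progenitors, at 93.1 and 24.1 CPM. In WT EryP/early Ery-like cells S100a10 was at 65.6 to 93.8 CPM, a range that holds the positive cells. Cd63 was at 16.1 to 27.5 CPM there and Hhex at 33.6 to 36.4 CPM, below the positive cells. The comparison cells lay below the WT ranges of S100a10 and Hhex. Gata2, a gene of the rule, was at 81.5 and 19.9 CPM, and Car1, the other, at 2549 and 2394 CPM. Of the 20 leading genes, all 20 were above 0 within this class and 12 past the fold. Mt2 (0.33), Atp1b2 (0.54) and Mpped2 (0.61) were among those that were not, and none of the 10 lowest was past the fold lower. The 20 were chosen for being high in the positive cells, these among them, so the counts are a description. Of all genes tested within this class, 1.77% were past the fold higher.

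In the gene lists, all 12 megakaryocyte markers were past the fold lower, with a median log2 difference of -2.33 against -0.03 over all genes, and their summed level was 187 CPM in positive and 3877 CPM in comparison cells. Over all genes, 2.17% were past the fold lower and 0.335% higher, and within EryP/early Ery-like cells 2.17% and 1.77%. Within EryP/early Ery-like cells the call was gone, with 1 megakaryocyte marker at 20 CPM, none past the fold and a summed log2 difference of 0.34. Of 10 late erythroid markers, 8 were past the fold lower, among them Hba-a1 (-2.45), Slc4a1 (-2.28) and Hba-a2 (-1.91), with sums of 3336 and 12427 CPM, and 8 of 10 were lower within EryP/early Ery-like cells as well. Of 12 early erythroid markers, 1 was higher (Mt2) and 1 lower (Hemgn, -1.44), and the sums were 4617 and 3050 CPM. None of these 12 was higher and Hemgn alone lower within EryP/early Ery-like cells. That list holds Car1, which chose comparison cells.

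Of 9 MEP markers at 20 CPM, 1 was lower and none higher, beside 2.17% and 0.335% of all genes. In EryP/early Ery-like cells 2 of 7 were higher, Gata2 of the rule and Apoe (1.11), and none lower. Of all genes tested within that class, 1.77% were higher and 2.17% lower. Over all cells, Apoe had the highest difference among the 9, at 65.1 and 47.1 CPM (0.43), and Tal1 was at 65.1 and 97.6 CPM (-0.55). Of 8 stem and multipotent progenitor markers, 2 were lower, Ctla2a (-1.13) and Meis1 (-1.13), while within EryP/early Ery-like cells none passed the fold and these were at 0.71 and -0.05. Of 6 early granulocyte markers, Elane (-1.28), Prtn3 (-1.09) and Ms4a3 (-1.06) were lower, and the sums were 2102 and 3769 CPM. Within EryP/early Ery-like cells none of the 6 passed the fold, and the summed difference was 0.11 on the log2 scale. None of the 9 late granulocyte markers passed the fold, with sums of 3126 and 4601 CPM, so RNA of late granulocytes was found in both groups, and its part in the results was not tested. No marker of basophils and mast cells (4 at 20 CPM), ProMo (1), T and NK cells (1), dendritic cells (3), macrophages (1) or stroma (1) was past the fold. Eosinophil and B cell markers had none at 20 CPM. Of these lists, Cd3d, Cd3e, Cd79a, Pax5, Adgre1 and C1qb had 0 UMIs in the positive cells, while others were present, such as Nkg7 at 142 CPM, Ebf1 at 11.2 CPM and Cd79b at 5.45 CPM. The sums in positive and comparison cells were 20.2 and 19.1 CPM for B cells, 145 and 189 CPM for T and NK cells, and 34.9 and 36.2 CPM for macrophages, and their part in the results was not tested.

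The lists of regulators are set beside 0.335% of all genes past the fold higher and 2.17% lower. Of 14 GATA, TAL1 and partner factors, 1 was lower, Fli1, a factor of megakaryocytes, at 37.5 and 120 CPM (-1.56). Klf1, the erythroid master factor, was at 129 and 101 CPM (0.34), and Myb at 360 and 291 CPM (0.30). Klf1 went the other way within EryP/early Ery-like cells, at 186 and 234 CPM (-0.33). None of 11 Polycomb genes passed the fold (median -0.11), with Ring1 at 21.5 and 13.3 CPM (0.53) and Jarid2 at 37.5 and 55.6 CPM (-0.51). None of 4 ERK pathway feedback and output genes or 4 immediate early genes passed it. Of 7 receptors, 2 were lower, among them Cd9, a tetraspanin on this list, at 45.5 and 310 CPM. Kit was at 124 and 74.7 CPM (0.70) and Epor, the erythropoietin receptor, at 37.2 and 25.2 CPM (0.48). Within EryP/early Ery-like cells, Gata2 (1.80) and Myb (1.14) of the first list and Kit (1.04) and Cd63 (1.94) of the receptors were past the fold higher, and none was lower, beside 1.77% and 2.17% of all genes. Gata2 is a gene of the rule.

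Over all cells, none of 16 S phase genes (median -0.14) and none of 15 mitosis genes (median -0.34) passed the fold, beside a median of -0.03 over all genes. The S phase genes included Mcm2 (0.04) and Mcm4 (0.02), and the mitosis sums were 1322 CPM (1282 to 1363) and 1769 CPM (1721 to 1818). Mki67 was at 119 and 186 CPM (-0.63). Within EryP/early Ery-like cells the sums differed more, by log2 -0.49 for S phase and -0.60 for mitosis, and 1 S phase gene, Rrm2, was past the fold lower (-1.22). Of 2 CDK inhibitors at 20 CPM, Cdkn2d was lower over all cells, at 36.9 and 86.3 CPM (-1.12). Within EryP/early Ery-like cells 2 of 2 were lower. Of all genes, 2.17% were past the fold lower over all cells, and 2.17% within that class.

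The effector lists are likewise set beside 0.335% of all genes higher and 2.17% lower. All 4 globins at 20 CPM were lower, with sums of 3169 and 12024 CPM. Of 13 genes of haem synthesis and iron, Slc25a37, the mitochondrial iron importer (-1.61), and Alas2, the first enzyme of erythroid haem synthesis (-1.60), were lower. Of 5 platelet alpha granule and fibrosis-linked factors, Pf4, Ppbp and Thbs1 were lower. Of 4 muscle and contractile genes, Csrp3 was higher and Myl9, a myosin light chain of platelets and smooth muscle, lower, at 0.641 and 31.4 CPM (-2.69), so the list did not move in 1 direction. Within EryP/early Ery-like cells, all 4 globins and 4 of 14 haem and iron genes were lower. None of 2 platelet factors passed the fold there, and 1 of 3 muscle genes was higher, Csrp3. Of all genes tested within that class, 1.77% were higher and 2.17% lower. None of 7 heat shock genes passed the fold, with sums of 5467 and 4141 CPM. Type I interferon response, MHC class II, and fetal and Lin28b axis genes each had 1 gene at 20 CPM and none past the fold.

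In the small list Gem, Trnp1, Myl10 and Ckb, which was chosen with earlier results of these data known and is thus not independent, only Trnp1 passed the fold. Gem was at 67.0 CPM in positive cells (58.2 to 76.7) and 50.5 CPM in comparison cells (42.7 to 59.3), a log2 difference of 0.38 with intervals that overlap. Ckb had 1 and 9 UMIs and Myl10 6 and 0.

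**Figure D4:**
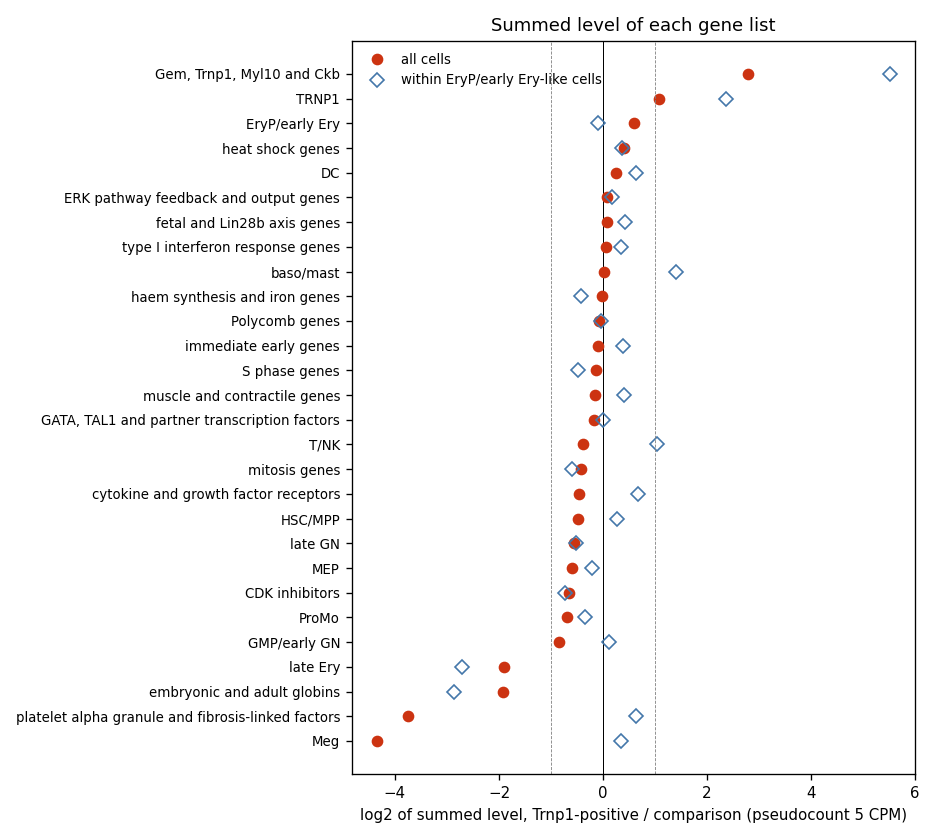
Log2 ratio of the summed level of each of the more abundant gene lists, Trnp1-positive over comparison cells, for all cells (filled circles) and within EryP/early Ery-like cells (open diamonds), with the 2-fold limits dashed. The megakaryocyte list is at -4.34 over all cells and at 0.34 within the class, while the globins are at -1.92 and -2.86, and the lists at the top hold Trnp1 itself.

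Levels of the marker genes were also read against the number of Trnp1 UMIs of a cell. Csrp3 was at 39.9 CPM in comparison cells, 71.2 CPM in cells with 1 Trnp1 UMI (57.1 to 87.7), 116 CPM with 2 to 4 (97.5 to 136) and 92.9 CPM with 5 or more (71.1 to 119). Sapcd1 was at 96.2 CPM (85.3 to 108), 102 CPM (84.9 to 121), 193 CPM (169 to 219) and 233 CPM (198 to 273) in the same order. Gata2 was at 211, 136, 163 and 129 CPM, and Car1 at 879, 1335, 1760 and 2246 CPM. Sapcd1 and Car1 were thus higher in cells with 2 or more Trnp1 UMIs than in cells with 1, and the intervals of Gata2 overlapped among the positive cells.

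Class and depth moved with the number of Trnp1 UMIs. EryP/early Ery-like cells were 25.3% of the cells with 1 UMI and 78.0% of those with 5 or more, and the median depths were 5491 and 10254 UMIs. GMP/early GN-like cells were 9.14% of the cells with 1 UMI and 0% of those with 5 or more, and Mpo, the granulocyte peroxidase, was at 434 and 64.0 CPM. Their part in the levels of Sapcd1 and Car1 was not tested.

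**Figure D5:**
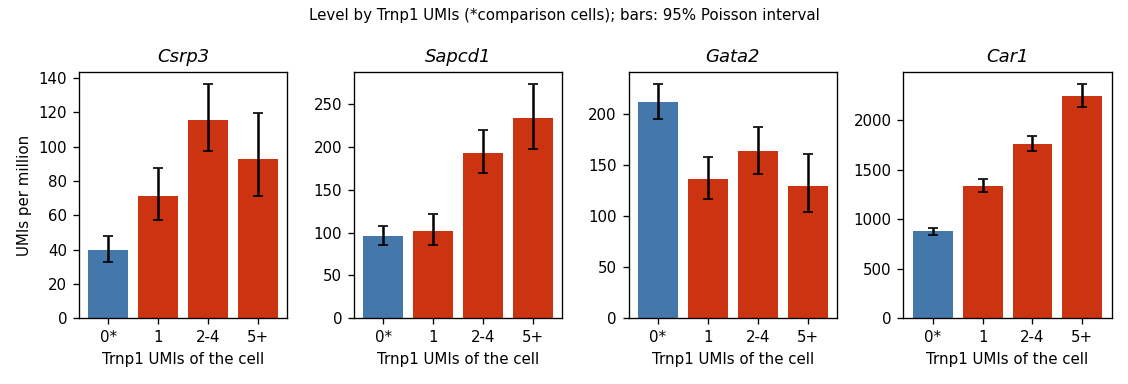
Level of Csrp3, Sapcd1, Gata2 and Car1 in CPM, with exact 95% Poisson intervals, in comparison cells (0 Trnp1 UMIs) and in cells with 1, 2 to 4, and 5 or more Trnp1 UMIs (459, 186, 166 and 59 cells). Car1 goes from 879 to 2246 CPM, and Gata2 is highest in the comparison cells by its rule, at 211 CPM.

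Cells passing the Gata2 or Car1 rule were found at each time point of G12D/E2-KO: 431 of 3044 cells at T1 (14.2%), 781 of 3767 at T2 (20.7%) and 784 of 2617 at T3 (30.0%). Without the cells shared with G12D T1, 6 of 148 cells passed at T1. Trnp1 was found in 2 of the 431 cells at T1 (0 of the 6), in 0 of the 781 at T2, which allows up to 0.658 CPM, and in 325 of the 784 at T3 (41.5%). Its level at T3 was 162 CPM (151 to 173). Over all genes, 60 of 5439 were past the fold higher at T3 than at T2 (1.1%) and 64 lower (1.18%), and 90 of 5505 were higher than at T1 (1.63%) and 112 lower (2.03%). Time point and library cannot be told apart here, since each time point is 1 library.

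Sapcd1 in these rule-passing cells was at 53.0 CPM at T1 (46.1 to 60.6), 68.2 CPM at T2 (60.8 to 76.2) and 139 CPM at T3 (130 to 149). Csrp3 was at 90.9 CPM (81.8 to 101), 56.8 CPM (50.1 to 64.2) and 68.5 CPM (61.8 to 75.7). Gem was at 5.0, 4.39 and 47.3 CPM. Thus Trnp1, Sapcd1 and Gem stood highest at T3, and Csrp3 at T1. The 6 unshared T1 cells had 1 Csrp3 UMI and 0 of Sapcd1 and Gem, too few to set a level.

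The makeup of the rule-passing cells differed between time points. EryP/early Ery-like cells were 35.3% of them at T1, 51.3% at T2 and 35.5% at T3, and Meg-like cells 6.5%, 6.02% and 19.6%. MEP-like cells were 14.4%, 16.8% and 16.8%. Pf4 stood at 355, 547 and 1449 CPM, and at T3 8062 of its 8144 UMIs were in cells with no Trnp1 UMI.

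For 16 of the 20 leading genes, the interval in rule-passing cells at T2 lay below that of the positive cells, and likewise for 16 of the 20 at T1, where most of these cells are shared. Of all 5672 genes tested, 24.8% and 22.0% met these conditions, and the 20 were chosen for being high in the positive cells, so the counts are a description. At T1 the intervals of Gm15915, Atp1b2, Csrp3 and Gna15 overlapped those of the positive cells. Gm15915 was at 149 CPM in rule-passing cells at T1 and 113 CPM at T2, against 137 CPM in the positive cells and 39.9 CPM in the comparison cells of T3. Atp1b2 was at 53.5 and 45.8 CPM against 58.7 CPM. Fam178b was at 0.50 and 0.877 CPM against 21.8 CPM, Pex11a at 4.00 and 4.61 CPM against 24.0 CPM, and Fam46a at 55.7 and 43.9 CPM against 145 CPM.

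The genes around Trnp1 are given as a description, since the rule itself set Trnp1 at 0 in the comparison cells. Within 500 kb on either side there were 22 other protein-coding genes, of which 6 were at 20 CPM or more, and none of the 6 passed the fold, beside 0.335% of all genes past it higher and 2.17% lower. They are named here after their values were seen. Their log2 differences between positive and comparison cells ran from -0.66 for Hmgn2, a nucleosome-binding protein, to 0.07 for Arid1a, a subunit of the SWI/SNF remodeller. Nudc, a neighbour that is expressed in both groups, was at 145 and 148 CPM. Kdf1, the nearest of the 22 at 20.4 kb, had 0 UMIs in both.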

How the data were processed

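Single-cell 3' RNA-seq (10x Genomics) of c-Kit-enriched bone marrow from 12 libraries was used. The authors aligned each sample to mm10 with Cell Ranger, removed cells with over 10% mitochondrial UMIs and doublets called by Scrublet, and deposited UMI counts per gene and cell. No cell of the tables exceeds that limit, and no further doublet caller was run. Members and gene lists were chosen with earlier results of these data known.

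UMIs were summed per group and divided by all UMIs of the group (CPM). Log2 ratios used a pseudocount of 5 CPM among genes at 20 CPM or more in either group. Named genes were the 20 highest and 10 lowest (10 or more UMIs where higher), without Trnp1, Gata2 and Car1, plus Sapcd1, Csrp3 and list members with large differences. WT cells were clustered (2000 variable genes, 50 components, 15 neighbours, Leiden resolution 2; scanpy 1.11.5, leidenalg 0.10.2) and named from marker lists; mutant cells took the class of the nearest WT cell. Limits for naming clusters were chosen with the data in view. Cells held by both T1 tables were found by cosine similarity above 0.9, since the tables number their cells. Libraries held 12636998 to 41422740 UMIs. The ratios and Poisson intervals were run on simulated counts that were themselves drawn as Poisson, so the coverage of the intervals was set in advance. Spread between cells was not simulated. Thinning was checked on real cells of G12D/E2-KO T3, only for each cell ending at 2000 UMIs. Of the genes that this rule selects, a few are not reported here.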

Additional observations from a re-analysis of the deposited data

How the results depend on the processing

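No paired analysis was possible because each group is 1 library and no result comes from a test; leaving out a replicate was likewise not possible. The share of Trnp1-positive cells (15.7%) was 9.46% with cells thinned to 2000 UMIs and 8.6% with 2 or more UMIs asked for. In G12D T1 it went from 0.0354% to 0% without shared cells. The share in the cluster with most positive cells was 60.3% at resolution 1, against 72.5%. At resolution 1 the EryP/early Ery-like cluster (229 cells) and the Meg-like cluster (205 cells) of the library were not split. The contrasts of cluster 6 with 13 and of cluster 8 with 14 were thus read at resolution 2 only. With WT cells clustered at resolution 1, no WT cluster was MEP-like, so the share by class gave no value for MEP-like cells there. Cells of the Gata2 or Car1 rule were 4.05% of T1 without shared cells, and 26.8% of T3 after thinning. The 19 genes past the fold higher became 38 with 2 or more Trnp1 UMIs, 164 against all other negative cells, 89 against Gata2-chosen cells, 93 within EryP/early Ery-like cells, 42 without haemoglobin, mitochondrial and ribosomal protein genes in the library size and 29 for positive cells that also pass the Gata2 or Car1 rule. The 123 lower became 200 with no filter, 238, 440 and 256 under the first 3 of those settings, 75 without the top 5% of UMIs, 65 without Meg-like and late Ery-like cells and 203 for positive cells that pass the rule. Those last alternatives (without Meg-like and late Ery-like cells, and positive cells that pass the rule) were chosen after seeing the data. The sign changed at very low counts within EryP/early Ery-like cells for Ppbp (log2 0.15), Thbs1 (0.14), Tpm4 (0.14) and Mrvi1 (0.15), each at 1.65 CPM or less in both groups, and without Meg-like and late Ery-like cells for Ppbp (0.0021), Thbs1 (0.29), Clec1b (0.093), Npy (0.093) and Mrvi1 (0.21); no direction is read from values this near 0, and the causes were not tested. All 20 leading higher genes stayed above 0 under all 12 alternatives run on them. These 20 were chosen as the highest in the same cells, so this count is a description. Of 372 values of named genes over these alternatives, 307 stayed within their limits, 56 moved and 9 changed sign. Depth limits low genes: 1 UMI in the positive cells is worth about 0.321 CPM.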

Other observations

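Apoe, which encodes apolipoprotein E and is a marker of WT MEP-like cells, was lower in MEP-like and HSC/MPP-like cells of G12D/E2-KO T3 than in any other library, with or without Trnp1. It was chosen after its values were seen. In MEP-like cells it was at 229 CPM in Trnp1-positive cells (188 to 275) and 247 CPM in negative ones (182 to 326). The other libraries had 774 to 1451 CPM in that class. In HSC/MPP-like cells it was at 29.8 CPM (15.4 to 52.1) and 27.6 CPM (17.7 to 41.0), against 58.5 to 229 CPM elsewhere. In EryP/early Ery-like cells the positive cells lay within the range of the other libraries, with 33.1 CPM (25.2 to 42.5) against 28.8 to 81.9 CPM, and the negative cells below it, with 12.3 CPM (6.37 to 21.5). No test was possible with 1 library per group.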
